A study of Mus musculus with 52 samples.

Results

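The 44 genes described here carry a cell through its division cycle, from the G1/S switch through DNA replication to mitosis, and were taken by name from the 27525 genes of the deposited expression table. They were measured by bulk RNA-seq in 32 subcutaneous KPC tumors. KPC tumors grow from KxPxCx cells, a single pancreatic adenocarcinoma line from a mouse with a Pdx1-driven Cre, implanted in the flanks of syngeneic C57BL/6 male mice of 8 to 10 weeks. Of the 4 groups of 8 tumors, 1 was left untreated as Control. The others received the STING agonist ADU-S100 once into the tumor (2 µg), the agonistic antibody anti-LTbR into the peritoneum (100 µg, 4 doses), or both agents (the combination), and all tumors were resected on day 14. The comparisons ask whether transcripts of the division cycle differed between treated and untreated tumors and between the combination and each agent alone.

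As background, cyclin D starts the passage out of G1 by activating CDK4 and CDK6, which loosens the hold of the retinoblastoma protein on E2F transcription factors. E2F and cyclin E with CDK2 then turn on the genes of replication, the MCM helicase is loaded and fired at origins, and in G2 the factors B-MYB and FOXM1 bring on the genes of mitosis. Growth signals reach this switch through cyclin D1, and transcripts of these genes are widely used to gauge how many cells of a tissue are dividing.

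Depth was even, with 12762453 to 15591986 reads recovered per library from the larger deposited table, and 7 of the 32 libraries held fewer than 14000000. Levels are the authors' normalized counts per gene, which depend on transcript length, so they are compared between tumors and not between genes. All 44 genes passed the filter on low values in each comparison. Markers of other tissue differed widely between tumors: the summed normalized count of 4 skeletal muscle genes ran from 3802 to 231359 and that of 4 skin keratinocyte genes from 1081 to 53108. In bulk tissue, fewer cells of a type and less RNA per cell cannot be told apart.

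The promoters are shown first because genes of the G1/S switch and genes of mitosis are known for different control sequences near their starts. RefSeq windows of 300 bases on GRCm38.p6 (250 before and 50 after the start) matched 35 of the 44 genes, 3 of which have more than 1 start. Searched on both strands were the E2F letters TTCCCGC, also TTCGCGC, also TTGCCGC and also TTGGCGC, the cell cycle homology region (CHR) of mitotic genes, with the letters TTTGAA or else TTCGAA, and the CCAAT box, any of which may overlap another. In the lines that follow, capitals mark these matches in up to 200 bases before the start, with bases of annotated exons on that strand left out. For Cdc6 these exon bases lie farthest from the start, so its stretch begins 169 bases before the start, where an annotated exon ends. The first 3 genes rose with the combination.
Ccne1, chr7:38107535-38107690, minus strand: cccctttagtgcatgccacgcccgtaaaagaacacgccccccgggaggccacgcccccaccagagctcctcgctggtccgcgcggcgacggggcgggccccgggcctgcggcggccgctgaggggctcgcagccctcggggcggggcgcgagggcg
Mybl2, chr2:163054435-163054634, plus strand: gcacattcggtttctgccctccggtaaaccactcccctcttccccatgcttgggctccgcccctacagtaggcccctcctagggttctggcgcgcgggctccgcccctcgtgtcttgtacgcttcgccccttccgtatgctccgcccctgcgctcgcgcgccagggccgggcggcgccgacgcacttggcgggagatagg
Cdc6, chr11:98907982-98908150, plus strand: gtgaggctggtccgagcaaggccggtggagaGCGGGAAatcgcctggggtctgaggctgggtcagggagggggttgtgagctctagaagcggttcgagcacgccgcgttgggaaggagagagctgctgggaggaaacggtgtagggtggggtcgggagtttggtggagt
The other 3 serve mitosis and did not pass the test there.
Mki67, chr7:135716380-135716579, minus strand: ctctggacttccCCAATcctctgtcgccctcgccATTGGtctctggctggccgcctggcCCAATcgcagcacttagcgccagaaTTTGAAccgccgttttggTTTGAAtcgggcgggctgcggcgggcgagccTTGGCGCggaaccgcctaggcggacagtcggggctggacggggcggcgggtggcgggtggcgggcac
Ccnb2, chr9:70421555-70421754, minus strand: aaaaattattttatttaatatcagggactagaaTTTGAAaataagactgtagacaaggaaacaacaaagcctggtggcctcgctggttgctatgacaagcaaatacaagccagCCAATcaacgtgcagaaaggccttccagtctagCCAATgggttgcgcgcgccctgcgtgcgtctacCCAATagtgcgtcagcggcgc
Cdk1, chr10:69352939-69353112, minus strand: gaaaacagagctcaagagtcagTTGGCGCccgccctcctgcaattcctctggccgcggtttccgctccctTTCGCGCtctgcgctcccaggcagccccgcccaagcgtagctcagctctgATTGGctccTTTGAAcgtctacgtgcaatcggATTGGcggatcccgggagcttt

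None of the windows of Ccne1, Mybl2, Cdc6 and E2f1, the 4 genes that rose, held the CHR or CCAAT letters, and that of Cdc6 alone held an E2F match. The E2f1 stretch lies in an annotated exon and is not printed. Over the mitosis and chromosome genes with a window, 18 of 20 held the CHR letters and 18 of 20 held CCAAT. Over the G1/S, licensing and nucleotide genes with a window, 3 of 15 held the CHR letters, 9 of 15 held CCAAT and 9 of 15 an E2F match, against 4 of 20 mitosis and chromosome genes with an E2F match. Of all 27025 genes with a window, 21.7% held the CHR letters, 41.1% CCAAT and 10.9% an E2F match. Of the 11732 genes with a window that were tested in combination against untreated tumors, the shares were 16.8%, 42.4% and 18.0%. With G also allowed as the last base of the E2F letters, 10 of 15 and 6 of 20 held a match, and Mybl2 was then among them. The share was 19.8% of all windows and 32.1% of those of the tested genes, so the mitosis and chromosome genes did not exceed the tested genes there. A match is a stretch of letters and was not shown to be bound.

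Combination tumors had higher transcripts of a few genes of the G1/S switch and lower cyclin D1 than untreated tumors, and none of the module's mitotic genes was called. Differences are log2 fold changes of normalized count + 1, and a call is an FDR below 0.05. Ccne1 (cyclin E1), E2f1, Mybl2 (B-MYB) and Cdc6 rose and Ccnd1 (cyclin D1) fell. These are 4 of 44 genes higher, where 19.6% of the 16909 genes tested were higher, and 1 of 44 lower, where 23.6% of all genes were lower, so the module held smaller shares of calls than the transcriptome in both directions. Its median difference was 0.019 against -0.016 over all genes, with 23 differences above 0 and 21 below. All 5 calls fell among the 20 genes of the G1/S, licensing and nucleotide roles, and none among the 24 genes of the mitosis and chromosome roles. In the latter the differences ran from -0.20 to 0.20 (log2), the 95% intervals reached from -0.47 to 0.44, and the smallest adjusted p was 0.0785, of Tpx2. In libraries above 14000000 reads, which leaves out untreated tumor 6 and combination tumors 5 and 6, the median was 0.12, 34 differences lay above 0 and 10 below, and 7 genes were higher, with Mcm5, Mki67 and Tpx2 added. That is 15.9% of the module against 15.7% of all genes, so upward the smaller share did not hold there. DESeq2 on recovered reads called Mcm3 and Tpx2 higher besides Ccne1, E2f1 and Cdc6, and with all 4 groups in a single fit the count lower was 3, with E2f8 and Mcm7 added. Complete separation of the 8 combination from the 8 untreated tumors was seen for 2 of 44 genes upward (Ccne1 and E2f1) and for none downward, where 4.64% of all genes separated upward and 6.04% downward.

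**Figure D1:**
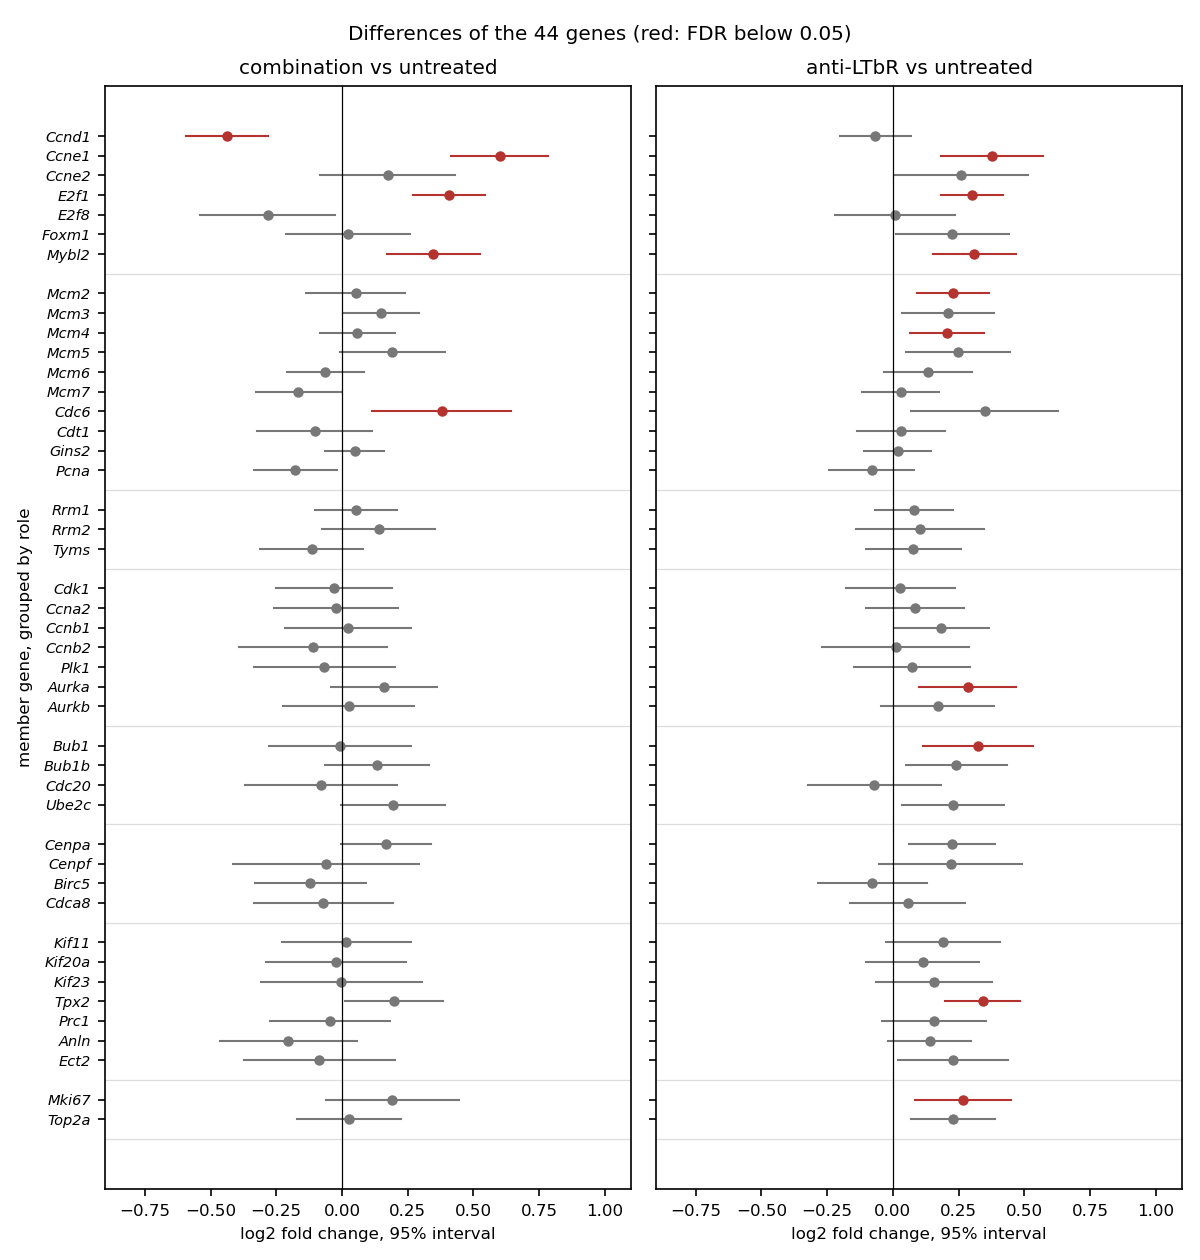
Log2 fold change with its 95% interval (horizontal axis) of each of the 44 genes, ordered by role, for combination against untreated tumors (left) and anti-LTbR against untreated tumors (right), 8 tumors a group. Red marks an FDR below 0.05, which 5 genes reached on the left and 9 on the right, where 40 of 44 differences lay above 0.

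Among the cyclins and transcription factors of the G1/S switch, Ccne1, whose product activates CDK2 at the entry to S phase, read 87.7 to 127 in untreated tumors (median 109), 72.9 to 128 with ADU-S100 (94.6), 119 to 164 with anti-LTbR (141) and 136 to 196 with the combination (163). Every combination tumor lay above every untreated and every ADU-S100 tumor, while anti-LTbR tumors overlapped both neighbours. The difference from untreated tumors was 0.60 ± 0.088 SE, a ratio of 1.52, with an adjusted p of 7.78e-05. E2f1, a transcription factor that drives S-phase genes once the retinoblastoma protein lets go of it, read 410.5 to 521 in untreated tumors (median 482), 478 to 580.3 with ADU-S100 (508), 519 to 627 with anti-LTbR (593) and 539 to 717 with the combination (637). Its order was untreated, ADU-S100, anti-LTbR and combination by the medians, and only untreated and combination tumors did not overlap at all. It was higher with the combination by 0.41 ± 0.064 SE (adjusted p = 0.000141), whereas its step from anti-LTbR to combination, 0.11, did not pass the test (adjusted p = 0.207).

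Mybl2 encodes B-MYB, which joins the MuvB core to switch on late cell cycle genes, and was named after its value was seen since it was among the 4 that rose. It read 176 to 229 in untreated tumors (median 186), 164 to 218 with ADU-S100 (186), 197 to 264 with anti-LTbR (246) and 194 to 279.9 with the combination (254), with 6 of 8 combination tumors above the highest untreated one. The difference was 0.35 ± 0.084 SE (adjusted p = 0.00333). Ccnd1, the growth-factor-responsive cyclin of CDK4 and CDK6, went the other way. It read 10542 to 13492 in untreated tumors (median 12364), 11527 to 12754 with ADU-S100 (11872), 10673 to 12608 with anti-LTbR (11481) and 7890.1 to 10906 with the combination (8746). The untreated, ADU-S100 and anti-LTbR ranges overlapped, and 7 of 8 combination tumors lay below the lowest untreated tumor. The difference was -0.44 ± 0.074 SE, a ratio of 0.74, with an adjusted p of 0.000235. E2f8, an atypical E2F that represses E2F targets, read 792 to 1403 in untreated tumors (median 1169.6), 1011 to 1465 with ADU-S100 (1146), 1012 to 1614 with anti-LTbR (1113) and 737 to 1293 with the combination (937). The groups overlapped, and the combination difference of -0.28 ± 0.12 SE missed the threshold (adjusted p = 0.0692). Foxm1, the factor of G2 and mitotic genes, and Ccne2 (cyclin E2) differed by 0.022 and 0.17 with adjusted p of 0.889 and 0.264.

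**Figure D2:**
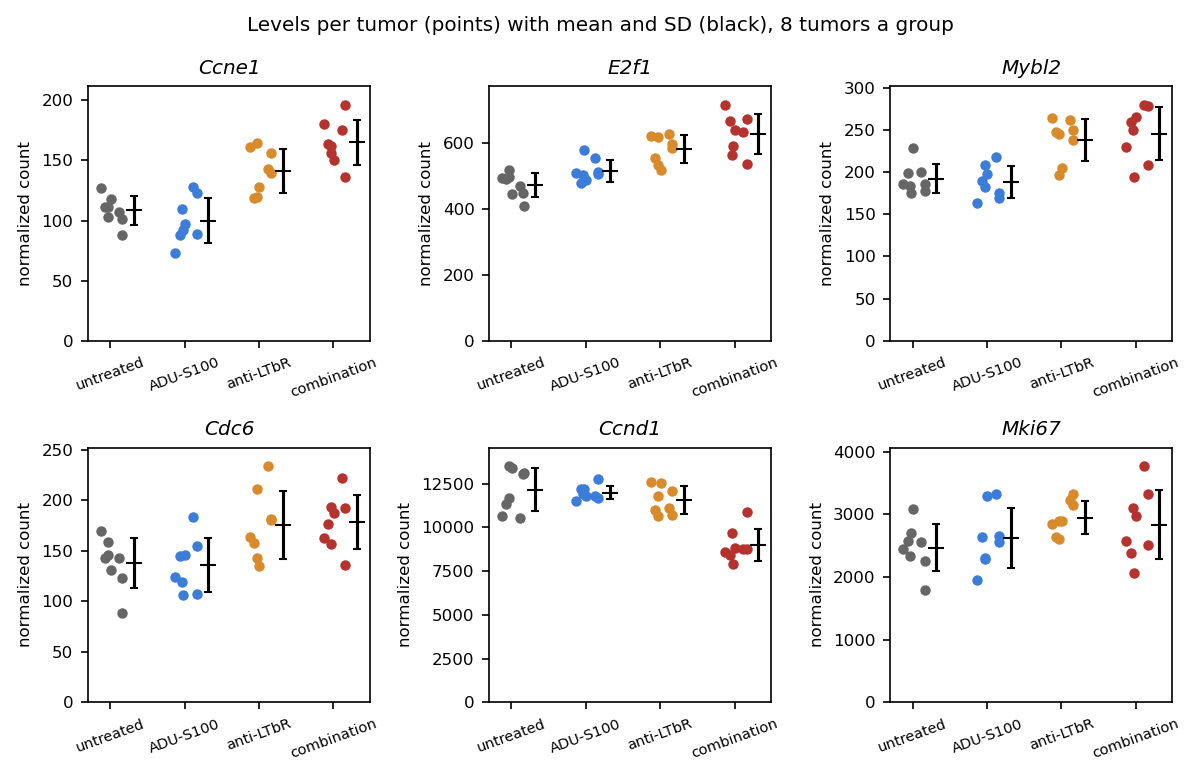
Normalized count (vertical axis, from 0) of 6 genes in each of the 32 tumors, by group, with the group mean and SD in black. Ccne1, E2f1, Mybl2 and Cdc6 were higher and Ccnd1 was lower in combination than in untreated tumors, while for Mki67 the combination values, 2062 to 3764, overlapped the untreated values, 1792 to 3081.

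Of the 10 genes of origin licensing and the replication fork, Cdc6 alone was called. Cdc6 helps load the MCM helicase onto origins and read 88.5 to 169.8 in untreated tumors (median 143), 106 to 184 with ADU-S100 (135), 135 to 233 with anti-LTbR (172) and 136 to 222 with the combination (182). The ranges overlapped, with 5 of 8 combination tumors above the highest untreated one, and the difference was 0.38 ± 0.12 SE (adjusted p = 0.0212). Pcna, the sliding clamp of the DNA polymerases, read 1849.5 to 2542 in untreated tumors (median 1998), 1713 to 2401 with ADU-S100 (1931), 1708 to 2293 with anti-LTbR (2009) and 1635 to 2121 with the combination (1865). Its difference was -0.18 ± 0.075 SE with an adjusted p of 0.0657, which missed the threshold, and 4 of 8 combination tumors lay below the lowest untreated one. With the replicate number as a block in the limma fit, Pcna was called lower (adjusted p = 0.0228). Cdt1, the partner of Cdc6 in licensing, read 352 to 519 in untreated tumors (median 452), 435 to 541 with ADU-S100 (459), 426 to 516 with anti-LTbR (456) and 319 to 518 with the combination (430.2). Its difference was -0.10 (95% interval -0.32 to 0.12) and the groups overlapped. For the helicase subunit Mcm6 the values were 1503 to 1971 in untreated tumors (median 1603), 1230.2 to 2258 with ADU-S100 (1622), 1478 to 2203 with anti-LTbR (1868) and 1389 to 1803 with the combination (1614). For Mcm7 they were 1313 to 1742 in untreated tumors (median 1516), 1286 to 1523 with ADU-S100 (1369), 1349 to 1798 with anti-LTbR (1574) and 1158 to 1578 with the combination (1371). These subunits of the same ring differed by -0.063 and -0.17 (adjusted p = 0.479 and 0.0916). The other subunits, Mcm2, Mcm3, Mcm4 and Mcm5, were 0.053, 0.15, 0.058 and 0.19 above the untreated level without a call, and Gins2, a part of the moving helicase, was 0.049 above it.

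The 3 genes of nucleotide supply gave no call. Rrm2, the S-phase subunit of ribonucleotide reductase, read 522 to 847 in untreated tumors (median 645), 448 to 895 with ADU-S100 (633), 509.9 to 858 with anti-LTbR (704) and 577 to 831 with the combination (737). Tyms, thymidylate synthase, read 294 to 437 in untreated tumors (median 377), 291 to 416 with ADU-S100 (359), 327 to 461 with anti-LTbR (393) and 301 to 406 with the combination (338). The groups of both genes overlapped throughout, with differences of 0.14 (95% interval -0.075 to 0.35) and -0.12 (-0.31 to 0.08) between combination and untreated tumors. Rrm1, the other subunit of the reductase, differed by 0.054.

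The 7 mitotic cyclins and kinases gave no call either. Cdk1, the kinase of mitotic entry, read 663 to 1043 in untreated tumors (median 712), 511 to 989 with ADU-S100 (743), 719 to 899.5 with anti-LTbR (833) and 630.1 to 911 with the combination (781). Its cyclin Ccna2 read 824 to 1403 in untreated tumors (median 1025), 664 to 1488 with ADU-S100 (996), 1029 to 1289 with anti-LTbR (1104) and 807 to 1306 with the combination (1056). Its cyclin Ccnb2 read 350.0 to 702 in untreated tumors (median 383), 242 to 559.5 with ADU-S100 (382), 361 to 522 with anti-LTbR (432) and 326 to 483 with the combination (408). In all 3 the untreated and ADU-S100 ranges reached beyond the combination range at their upper end, and the differences were -0.03, -0.022 and -0.11, with adjusted p of 0.84, 0.89 and 0.529. Plk1, a kinase of spindle assembly and mitotic exit, read 329 to 570.1 in untreated tumors (median 455), 261 to 628 with ADU-S100 (396), 364 to 569 with anti-LTbR (494) and 282 to 535 with the combination (458). Aurka, the Aurora kinase of the spindle poles, read 295 to 448 in untreated tumors (median 339), 246 to 456 with ADU-S100 (353), 375 to 549 with anti-LTbR (423) and 312 to 475 with the combination (397). Plk1 differed by -0.067 (95% interval -0.33 to 0.20) and Aurka by 0.16 (-0.041 to 0.36). Ccnb1 and Aurkb, the Aurora kinase of the chromosomal passenger complex, stood at 0.022 and 0.026.

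Of the spindle checkpoint and its target, the anaphase-promoting complex (APC/C), Ube2c came nearest to a call. Ube2c hands ubiquitin to the APC/C and read 791 to 1200.4 in untreated tumors (median 988), 782 to 1173 with ADU-S100 (998), 1029.6 to 1326 with anti-LTbR (1141) and 1008 to 1296 with the combination (1087), a difference of 0.19 ± 0.094 SE (adjusted p = 0.105). The checkpoint kinase Bub1b read 395 to 669 in untreated tumors (median 507), 333 to 693 with ADU-S100 (495), 510.0 to 709 with anti-LTbR (615) and 474 to 657 with the combination (562). The related kinase Bub1 read 266 to 453 in untreated tumors (median 314), 224 to 464 with ADU-S100 (349), 337 to 479 with anti-LTbR (408) and 234 to 423 with the combination (338). Bub1 was near the same level in untreated and combination tumors, -0.0065, with its highest median under anti-LTbR, and Bub1b differed by 0.13 (adjusted p = 0.263). Cdc20, the activator of the APC/C, read 429 to 853 in untreated tumors (median 539.6), 307 to 758 with ADU-S100 (506), 467 to 643 with anti-LTbR (534) and 394 to 704 with the combination (561), with a difference of -0.08 (95% interval -0.37 to 0.21).

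The centromere and chromosomal passenger genes likewise overlapped between groups. Cenpa, the histone H3 variant of centromeres, read 475 to 672 in untreated tumors (median 529.9), 387 to 718 with ADU-S100 (510.0), 541 to 705 with anti-LTbR (649) and 533 to 703 with the combination (602). Cenpf, a large kinetochore protein, read 416 to 936 in untreated tumors (median 711), 423 to 1123 with ADU-S100 (723), 708 to 957 with anti-LTbR (773) and 448 to 914 with the combination (676). Cenpf had its widest spread among ADU-S100 tumors, and the combination differences were 0.17 for Cenpa (adjusted p = 0.105) and -0.061 for Cenpf (0.796). Birc5, survivin, read 430.2 to 704 in untreated tumors (median 480.2), 278 to 607 with ADU-S100 (449), 392 to 549 with anti-LTbR (501) and 389.9 to 540.4 with the combination (493). Cdca8, borealin, read 306 to 568 in untreated tumors (median 380.5), 257 to 455 with ADU-S100 (341), 386 to 475 with anti-LTbR (414) and 277 to 463 with the combination (394). Both belong to the passenger complex with Aurora B and differed by -0.12 and -0.071 (adjusted p = 0.347 and 0.674).

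Among the spindle motors and cytokinesis genes, Tpx2, which activates Aurora A on spindle microtubules, read 1079.6 to 1595 in untreated tumors (median 1241), 1044 to 1621 with ADU-S100 (1279), 1414 to 1770.0 with anti-LTbR (1621) and 1147 to 1797 with the combination (1401). It differed by 0.20 ± 0.088 SE with an adjusted p of 0.0785, which missed the threshold. Anln, the actin-binding anillin of the cleavage furrow, read 1685 to 2678 in untreated tumors (median 2012), 1365 to 2966 with ADU-S100 (2059), 1868 to 2438 with anti-LTbR (2292) and 1219.9 to 2584 with the combination (1781). It had the lowest difference of the mitosis genes, -0.20 ± 0.12 SE (adjusted p = 0.194), with 3 of 8 combination tumors below the lowest untreated one. Kif20a, a kinesin of the central spindle, read 523 to 954 in untreated tumors (median 677), 409 to 1059.8 with ADU-S100 (649), 621 to 834 with anti-LTbR (772) and 466 to 824 with the combination (699). Kif23, the kinesin of the centralspindlin complex, read 386 to 766 in untreated tumors (median 521), 326 to 787 with ADU-S100 (496), 486 to 664 with anti-LTbR (604) and 333 to 701 with the combination (548). Prc1, which bundles the microtubules of the midzone, read 1115 to 1891 in untreated tumors (median 1274), 877 to 1868 with ADU-S100 (1335), 1342 to 1759.8 with anti-LTbR (1499.8) and 986 to 1544 with the combination (1321). Their differences were -0.021, -0.0019 and -0.045. Ect2, the exchange factor that activates RhoA at the furrow, read 363 to 609 in untreated tumors (median 455), 289.7 to 717 with ADU-S100 (470.2), 457 to 594 with anti-LTbR (538) and 307 to 618 with the combination (437), with a difference of -0.086 (95% interval -0.37 to 0.20). Kif11, the motor that separates spindle poles, differed by 0.017.

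Mki67, the proliferation marker Ki-67 that coats mitotic chromosomes, read 1792 to 3081 in untreated tumors (median 2501), 1948 to 3323 with ADU-S100 (2598), 2604 to 3321 with anti-LTbR (2892) and 2062 to 3764 with the combination (2770.2). Top2a, the topoisomerase that untangles sister chromatids, read 2365 to 3657 in untreated tumors (median 2903), 2113 to 3899.8 with ADU-S100 (3095), 3076 to 3911 with anti-LTbR (3484) and 2344 to 3764 with the combination (3036). Both had their highest median under anti-LTbR. In combination tumors Mki67 differed from untreated by 0.19 ± 0.12 SE (adjusted p = 0.207) and Top2a by 0.027 ± 0.094 SE (0.839).

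Anti-LTbR alone raised genes of both the G1/S switch and mitosis, though most of the module was not called. Of the 44 genes, 9 were higher and none lower, where 7.21% of the 16691 genes tested were higher and 8.10% lower, and 40 differences lay above 0. The median difference was 0.18 against 0.0030 over all genes. The calls reached both ends of the cycle. Besides Ccne1 (0.38), E2f1 (0.30) and Mybl2 (0.31), they took in the helicase subunits Mcm2 (0.23) and Mcm4 (0.21), the mitotic genes Aurka (0.28), Bub1 (0.32) and Tpx2 (0.34), and Mki67 (0.27). Their adjusted p ran from 0.00413 for E2f1 to 0.0486 for Mcm4, and Top2a at 0.0502 lay just outside. Ccnd1, which fell with the combination, differed by -0.067 ± 0.064 SE (adjusted p = 0.48) under anti-LTbR. The 4 genes below 0 were Cdc20, Pcna, Birc5 and Ccnd1, with adjusted p of 0.478 or more. The count of 9 fell to 4 (Ccne1, E2f1, Mybl2 and Tpx2) when all 4 groups shared a single fit, where 9.09% of the module stood beside 8.62% of all genes. With no filter on low values it fell to 5, or 11.4% beside 3.57%. The call of Mki67 was lost in 6 alternatives, among them edgeR with each scaling, and was kept in 5, among them DESeq2.

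ADU-S100 alone gave no call in the module and none in the transcriptome: 0 of 44 genes and 0% of the 16613 genes tested were higher, and 0 of 44 and 0% lower, by limma. At an unadjusted p below 0.05, 1 of the 44 was higher (E2f1) and 1 lower (Mcm7). DESeq2 on recovered reads called 46 genes higher and 11 lower over all genes, with none of the members tested among them, and edgeR called 0 higher and 1 lower over all genes. The 44 differences ran from -0.23 (Cdc20) to 0.13 (E2f1), 29 of them below 0, and the 95% intervals reached from -0.63 to 0.45.

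Between the combination and anti-LTbR alone, Ccnd1, Anln and Bub1 were lower in the combination and 41 of the 44 genes were not called. No gene was called higher and 3 of 44 were lower, where 11.3% of the 16932 genes tested were higher and 15.3% lower. The 3 were Ccnd1 (-0.37 ± 0.061 SE, adjusted p = 0.00104), Anln (-0.34 ± 0.12 SE, adjusted p = 0.0363) and Bub1 (-0.33 ± 0.12 SE, adjusted p = 0.0476). All 24 genes of the mitosis and chromosome roles lay below 0, with a median of -0.14 against -0.025 over all genes. Over the whole module 38 of 44 lay below 0. These genes vary together from tumor to tumor, as described below, so their signs are not separate observations. By edgeR, with no filter on low values, or in libraries above 14000000 reads, Ccnd1 alone of the 3 was still called. In the single fit of all 4 groups the calls were Ccnd1 and Mcm7, and without the tumors richest in muscle transcripts they were Ccnd1 and Anln. In the same comparison 5 of 5 fibroblast markers (median 1.27) and 4 of 4 blood endothelial markers (0.58) were higher and 3 of 7 epithelial markers were lower. These were the keratins Krt8, Krt18 and Krt19, while Epcam (0.82), Cdh1 (0.67) and Cldn4 (0.25) lay above 0 without a call. The part of these shifts was not tested. Against ADU-S100 alone, the combination was higher in 4 of 44 genes (Ccne1 0.73, Cdc6 0.40, Mybl2 0.38, E2f1 0.28) and lower in 2 (Ccnd1 -0.42, E2f8 -0.33), where 20.2% of the 16811 genes tested were higher and 26.0% lower. There 5 of 5 fibroblast, 4 of 4 blood endothelial, 4 of 4 B cell, 5 of 5 macrophage and 5 of 6 T cell markers were higher. Of 7 epithelial markers, 4 (all keratins) were lower, while Epcam (0.90), Cdh1 (0.60) and Cldn4 (0.16) lay above 0 without a call. The part of these shifts was not tested either. The comparisons share groups, so their values are given side by side and not counted as separate evidence.

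The interaction asks whether the difference made by anti-LTbR was another with ADU-S100 than without it. Of the 44 genes, none was positive and 1 was negative, where 7.33% of the 17649 genes tested were positive and 11% negative. The gene was Ccnd1, at -0.36 ± 0.084 SE with an adjusted p of 0.00416: anti-LTbR went with -0.067 in the absence of ADU-S100 and with -0.42 in its presence. Ccne1 had the next smallest p of the module, with an interaction of 0.36 ± 0.14 SE (adjusted p = 0.0785), and the 95% intervals of the 43 genes without a call reached from -0.82 to 0.68.

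The 44 genes varied together from tumor to tumor. After group means were removed, the Pearson correlation over the 32 tumors had a median of 0.72 over the 946 pairs of genes, 98.2% of them above 0, and 0.87 over the 231 pairs within the mitosis roles. These values share libraries and their normalization and are given as a description. Measured against the mean of the other 43 genes, 31 genes had a correlation of 0.8 or more. The 3 lowest were E2f8 (0.15), E2f1 (0.20) and Ccnd1 (0.25), and the other genes called in combination tumors stood at 0.62 (Cdc6), 0.63 (Ccne1) and 0.66 (Mybl2). The 5 called genes thus ranked 2, 3, 9, 10 and 11 from the lowest of 44. Gins2 (0.52) and Mcm7 (0.58), not called there, lay among them. Under anti-LTbR, by contrast, the calls besides Ccne1, E2f1 and Mybl2 stood high. They were Mcm2 (0.91), Mki67 (0.90), Bub1 (0.90), Tpx2 (0.89), Aurka (0.84) and Mcm4 (0.83). Spread between tumors also enters the SE of each difference, so correlation and call are not independent measures. The ratio of the highest to the lowest tumor of a group had a median over genes of 1.61 in untreated, 1.85 in ADU-S100, 1.35 in anti-LTbR and 1.57 in combination tumors.

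**Figure D3:**
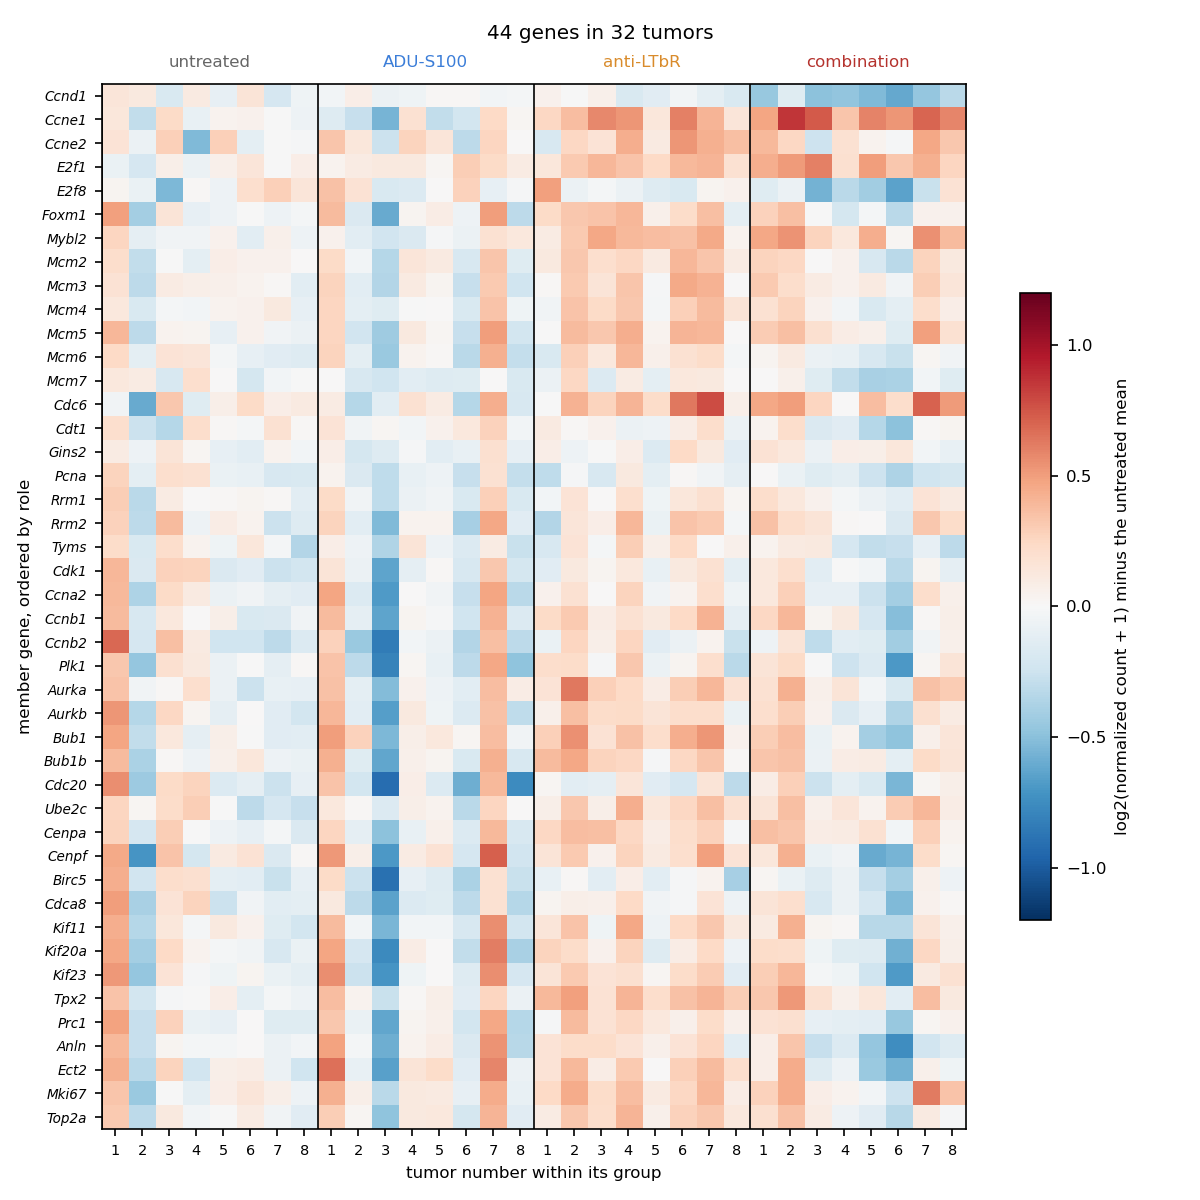
Log2(normalized count + 1) minus the untreated mean (color) of the 44 genes (rows, by role) in the 32 tumors (columns, numbered within each group). Whole columns shift together, as in ADU-S100 tumor 3, the lowest of its group in 37 of 44 genes, while the rows of Ccne1, E2f1, Mybl2 and Ccnd1 change between groups.

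**Figure D4:**
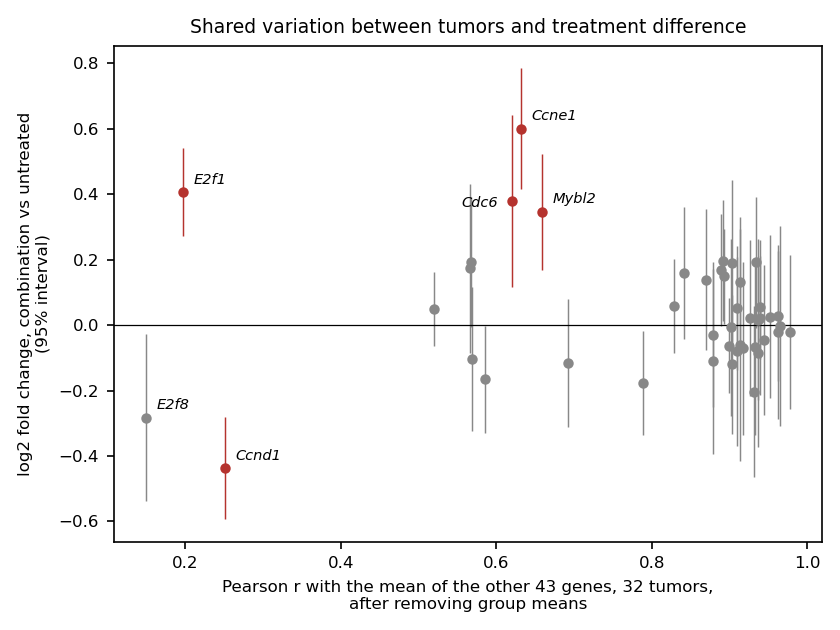
Each of the 44 genes by its Pearson correlation with the mean of the other 43 over 32 tumors after removal of group means (horizontal axis) and its log2 fold change with 95% interval between combination and untreated tumors (vertical axis). The genes called in this comparison, in red, all lie at correlations of 0.66 or less. The dense cluster on the right is not called here, though some of its genes were called under anti-LTbR.

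A few tumors set the extremes. Untreated tumor 2 was the lowest of its group in 29 of 44 genes, ADU-S100 tumor 3 in 37, anti-LTbR tumor 8 in 17 and combination tumor 6 in 33, and untreated tumor 1 was the highest of its group in 32. In each group the tumor with the most lowest values was also the one with the highest sum of the 4 skeletal muscle genes, which read 78520 in untreated tumor 2, 133289 in ADU-S100 tumor 3, 94122 in anti-LTbR tumor 8 and 231359 in combination tumor 6. The second highest sums went with a mean deviation (log2) from the group of 0.12 in untreated tumor 3 (70265), -0.15 in ADU-S100 tumor 8 (131245), 0.11 in anti-LTbR tumor 4 (85196) and 0.13 in combination tumor 7 (119863), so 3 of these 4 lay above their group mean. With the tumor of highest muscle sum left out of each group, a choice made after seeing the data, the 5 calls of the combination comparison stood unchanged (4 higher, 1 lower) and the anti-LTbR comparison kept 7 of its 9 genes higher, losing Aurka and Mcm4. The median correlation over the 946 pairs was then 0.67.

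**Figure D5:**
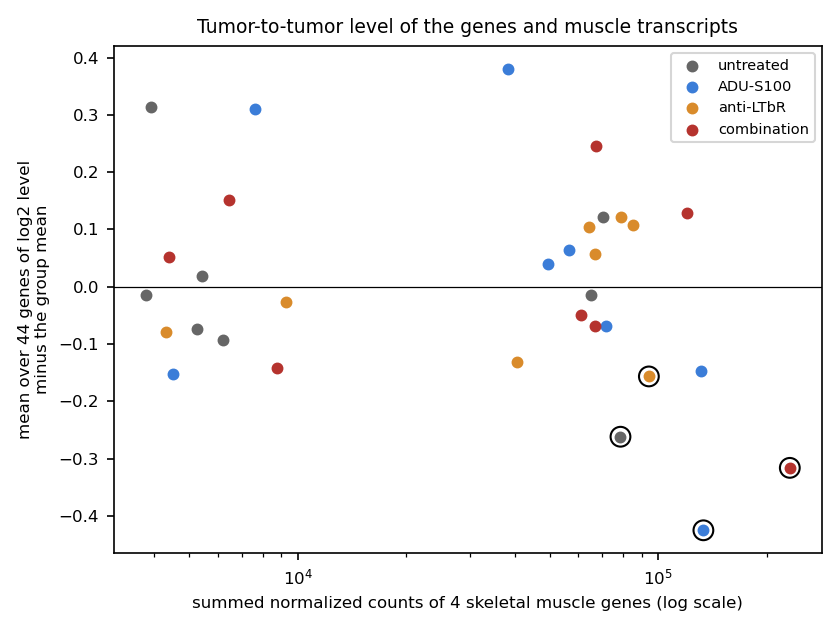
Each tumor by the summed normalized count of 4 skeletal muscle genes (horizontal axis, log scale) and the mean over the 44 genes of its log2 level minus the group mean (vertical axis), colored by group. Circles mark the highest muscle sum of each group, at -0.26, -0.42, -0.16 and -0.32 for untreated, ADU-S100, anti-LTbR and combination tumors.

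Genes around the module, from lists of the same pathway, had their largest differences among the inhibitors. Of 10 CDK inhibitors and pocket proteins, 4 were higher and 1 lower in combination than in untreated tumors, where 19.6% of all genes tested were higher and 23.6% lower. Cdkn2a, which encodes the CDK4 and CDK6 inhibitor INK4a and the p53 activator ARF, rose from a mean of 8.77 ± 4.77 SD to 35.3 ± 12.4 SD normalized counts (n = 8 each), or 1.98 ± 0.29 SE with an adjusted p of 7.78e-05. Its neighbour Cdkn2b, the inhibitor INK4b, rose from 25.5 ± 5.88 SD to 53 ± 9.75 SD (1.04 ± 0.16 SE, adjusted p = 0.000116). No combination tumor overlapped an untreated one in either gene, at levels where a few reads make a large share. The 1 that fell was Cdkn1a, the p53-induced inhibitor p21, from 4271 ± 569.9 SD to 3279.5 ± 283 SD (-0.37 ± 0.077 SE, adjusted p = 0.00108), with 6 of 8 combination tumors below the lowest untreated one. Cdkn1c, the inhibitor p57, rose from 102 ± 41.3 SD to 281 ± 105 SD (1.45 ± 0.23 SE, adjusted p = 0.000155), and Rbl1, the pocket protein p107, by 0.31 (adjusted p = 0.0259). These 3 were named after their values were seen. Cdkn2b also differed in the interaction (1.55 ± 0.28 SE, adjusted p = 0.000608), being -0.18 under anti-LTbR alone. Of 13 other G1/S genes, 3 were higher and 4 lower, shares near those of all genes. Ccnd2, cyclin D2, fell like Ccnd1, from 3595 ± 329 SD to 3027 ± 224 SD (-0.25 ± 0.059 SE, adjusted p = 0.00312). Cdk2, the kinase of cyclin E, rose from 638 ± 48.8 SD to 738 ± 40.7 SD (0.21 ± 0.052 SE, adjusted p = 0.00371).

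Of 26 other replication genes, 5 were higher, a share like that of all genes (19.6%), and 1 was lower. The called genes with the smallest adjusted p were Chaf1b, a subunit of chromatin assembly factor (0.31 ± 0.084 SE, adjusted p = 0.00723), and Cdc7, the kinase that fires origins (0.31 ± 0.093 SE, adjusted p = 0.0144). Of 29 other mitosis genes, only Espl1, separase, was called, at 0.32 ± 0.097 SE (adjusted p = 0.0139). Of 5 genes of the MuvB core and its DREAM complex, Rbbp4, a histone-binding subunit, was lower (-0.21 ± 0.048 SE, adjusted p = 0.00193) and none was higher. The medians of these 5 lists, in the order given, were 0.14, -0.056, 0.13, 0.050 and -0.15 against -0.016 over all genes. Under anti-LTbR alone, 4 of 26 replication genes and 4 of 29 mitosis genes were higher and none lower, with medians of 0.15 and 0.16, where 7.21% of all genes were higher and 8.10% lower.

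Markers of other cells moved with the groups as well. In combination against untreated tumors, 4 of 7 epithelial tumor cell markers were lower (summed normalized count 6897 to 14939 against 16176 to 29309). The 4 were the keratins Krt8, Krt18, Krt19 and Krt7, and the others, Epcam (0.56), Cdh1 (-0.27) and Cldn4 (-0.21), were not called. In the same comparison 5 of 5 fibroblast markers were higher (101303 to 369587 against 59973 to 96072), 6 of 6 T cell markers were higher (1146 to 2190 against 535 to 1445), and 4 of 4 blood endothelial markers were higher (1817 to 2578 against 1034 to 1533). Called higher were also 3 of 4 B cell markers, 3 of 5 macrophage markers, the pan-leukocyte gene Ptprc (0.59) and the neutrophil gene Csf3r (0.63, 1 of 4), but 0 of 4 skeletal muscle and 0 of 4 keratinocyte genes. Among 2 germinal center B cell markers tested, S1pr2 (0.34) was higher and Gcsam (-0.070) was not called. Of 4 plasma cell markers tested, Jchain (2.26) and Mzb1 (2.03) were higher, Xbp1 (0.20) was not called and Sdc1 (-0.42) was lower. The paper reports that tumor cells express syndecan-1, the product of Sdc1, as well. The muscle genes still lay 1.30 to 1.48 (log2) above untreated, with sums of a median of 63892 in combination, 65318 in anti-LTbR and 52933 in ADU-S100 tumors against 5822 in untreated tumors. Under anti-LTbR, 4 of 7 epithelial markers were lower, with a sum of 13260 to 16395, and 2 of 6 T cell and 0 of 5 fibroblast markers were called. Epithelial markers were present in every tumor, and of all lists only the germinal center marker Rgs13 had a mean under 1 normalized count. The part of these shifts in the differences of the cell cycle genes was not tested.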

How the data were processed

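RNA of 32 tumors was sequenced as stranded poly(A) libraries. Per the labels and the study's methods, the authors used Cutadapt 1.9, FastQC, HISAT2 and StringTie, with STAR in Partek Flow, DESeq2, edgeR and mm39 also named. Per the labels the 32-library table came from Partek Flow, and the aligner behind each table is not given in the sources used here. The deposited signal values are normalized counts (each library scaled by a size factor of its own) of 27525 genes. A larger deposited table of 52 libraries holds the same kind of signal on another scale and gave whole reads for 100% of values (tolerance 0.01), on which edgeR called 3271 genes higher and 3391 lower of 15722 in combination against untreated tumors. A file of the authors' gene set scores and p-values was not used.

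The 44 genes, the lists and the tests were chosen with earlier results of these data known. Groups came from the labels, which number the tumors, so p-values measure the spread between tumors, and whether any of these came from the same mouse is not given in the sources used here. Each pairwise comparison (16 tumors) and the interaction (32) was fitted over all genes with limma 3.58.1 (trend, R 4.3.3) on log2(normalized count + 1), after a filter on low values (filterByExpr, minimum 10), with Benjamini-Hochberg adjustment over all genes tested and a threshold of 0.05. A fold on this scale understates the change of low genes. edgeR 4.0.16 and DESeq2 1.42.0 on recovered reads, 42 of the 44 genes, were alternatives. The procedures were tested on simulated data. Given in full were the 2 genes of each role with the smallest adjusted p in combination against untreated tumors, Mki67, those opposite in sign to the median gene, the 2 with the smallest interaction p and, of each pathway list, up to 2 called genes. Promoter letters came from the RefSeq table of GRCm38.p6.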

Additional observations from a re-analysis of the deposited data

Results flagged for a closer look

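In 4 of the 176 sets of 8 tumors (44 genes in 4 groups), the highest tumor stood apart from the rest by more than Dixon's 95% critical value, where chance alone gives about 1 in 20. Anti-LTbR tumor 1 had 1614 normalized counts of E2f8, with the next tumor at 1192. Untreated tumor 1 had 229 of Mybl2 (next 200.3), 981 of Mcm5 (next 774) and 2678 of Anln (next 2099), and was the highest of its group in 32 of the 44 genes.

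The difference made by anti-LTbR was another with ADU-S100 than without it in 3 of the named genes of the cell cycle lists, by the interaction term of limma. It was -0.36 for Ccnd1 (adjusted p = 0.00416), -0.35 for Ccnd2 (adjusted p = 0.00749) and 1.55 for Cdkn2b (adjusted p = 0.000608). Against their own controls, anti-LTbR gave -0.017 without and -0.36 with ADU-S100 for Ccnd2, and -0.18 and 1.37 for Cdkn2b.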

How the results depend on the processing

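None of the 24 calls of the 44 genes over the comparisons reversed under any alternative, and for Ccne1, E2f1 and Ccnd1 the adjusted p in combination against untreated tumors stayed at or below 0.00124, 0.00134 and 0.00360. The cause of the following moves was not tested, except that a 2-fold threshold, which no gene of the module reached, gave 0 in every comparison by construction. In combination against untreated tumors, 7 genes were higher in libraries above 14000000 reads (15.9% of the module against 15.7% of all genes tested), and 3 were lower in a single fit of all 4 groups (6.82% against 26.3%) and with the replicate block (6.82% against 22.3%). Under anti-LTbR against untreated, 5 were higher with no filter on low values (11.4% against 3.57%), 4 in the single fit (9.09% against 8.62%) and 4 with the replicate block (9.09% against 4.91%). In combination against anti-LTbR, DESeq2 called 1 higher (Ccne1; 2.38% against 14.6%). There 1 was lower by edgeR with each scaling (TMM, RLE, library totals; 2.38% against 11.1 to 11.7%), with no filter (2.27% against 7.50%) and in libraries above 14000000 reads (2.27% against 4.19%), and 6 were lower with the replicate block (13.6% against 15.3%). In combination against ADU-S100, 7 were higher with the replicate block (15.9% against 19.2%), and 1 was lower by edgeR with library totals (2.38% against 21.7%) and in libraries above 14000000 reads (2.27% against 22.1%). Of the genes named, Cdc7 missed the threshold in libraries above 14000000 reads (adjusted p = 0.0630, limma, with 0.00268 to 0.0630 over all alternatives). The module's median difference ran over all alternatives from 0.019 to 0.12 in combination against untreated, 0.14 to 0.22 in anti-LTbR against untreated, -0.055 to -0.0053 in ADU-S100 against untreated, -0.13 to -0.094 in combination against anti-LTbR, 0.045 to 0.18 in combination against ADU-S100 and -0.10 to -0.048 in the interaction.

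Of the genes named, 11 that were not called and lay below 0 in combination against untreated changed sign. In libraries above 14000000 reads these were Cdk1 (0.0016), Ccna2 (0.075), Plk1 (0.051), Bub1 (0.14), Cdc20 (0.00061), Cenpf (0.14), Cdca8 (0.022), Kif20a (0.087), Kif23 (0.16), Prc1 (0.038) and Ect2 (0.066). Bub1 also did by DESeq2 (0.016), by edgeR with TMM (0.014), RLE (0.015) and library totals (0.025), and without the tumors richest in muscle transcripts (0.019). Kif23 did by DESeq2 (0.019), by edgeR with TMM (0.018), RLE (0.019) and library totals (0.030) and without those tumors (0.028), and Kif20a by edgeR with library totals (0.0016).

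Whether replicate numbers pair the tumors is not given in the sources used here. Same-numbered tumors had mean correlations of -0.085 to 0.19 in their deviations, with a negative value in each comparison, and 1 to 3 of 8 correlated best with their own number. Tumor 1 had a low muscle sum in untreated (3931), ADU-S100 (7617), anti-LTbR (4333) and combination (6474) tumors. These values do not decide whether the numbers mark a pairing or a batch. Cdkn2a, at a mean of 8.77 normalized counts in untreated tumors, rests on few reads, and Mybl2 and Gins2 were not tested on recovered reads.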

Other observations

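A further 20 libraries of another experiment entered no comparison, since the labels of 15 of them contradict each other and the other 5 are combination tumors with no control of their own. On the scale of the larger table, Mki67 read 423 to 2477 (median 1540.4) in the 5 and 1040.3 to 2939 (median 2313) in the 15. Top2a read 1560.1 to 2744 (median 2257) in the 5 and 1657 to 3973 (median 2961) in the 15.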
